A study of Homo sapiens with 4 samples.

Results

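The genes described here encode Polycomb repressive complexes, trithorax-type histone methyltransferases and nucleosome remodellers, the machinery that keeps genes in a silent or an active chromatin state. The 53 members were given as a list of gene symbols and were matched by Entrez gene ID. All 53 were found among the 19390 gene IDs that the 4 libraries list. They comprise 7 genes of Polycomb repressive complex 2 (PRC2), 16 of Polycomb repressive complex 1 (PRC1), 2 demethylases that oppose PRC2, 8 trithorax-type genes, 10 subunits of the BAF remodeller, 8 genes of the CHD and NuRD remodellers and 2 SALL zinc finger genes.

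The libraries came from the wild type H1 line, an established human embryonic stem cell line, on days 0, 2, 3 and 4 of a stepwise induction of blood formation. Day 0 is the undifferentiated culture. The medium was a custom mTeSR1 throughout, with activin A at 40 ng/ml and BMP4 at 50 ng/ml for the first 2 days, then VEGF at 40 ng/ml and bFGF at 50 ng/ml for 2 more days. Each day is 1 library of 1 line, so no difference between days has a replicate check and none has a p-value. The 95% intervals below cover counting error only.

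PRC2 places a repressive methyl mark on histone H3, and PRC1 reads that mark, compacts chromatin and ubiquitinates histone H2A. Trithorax-type enzymes methylate histone H3 at active promoters and enhancers, and BAF, CHD and NuRD complexes slide or evict nucleosomes. In embryonic stem cells Polycomb complexes occupy the promoters of many developmental regulators. Several subunits exist as paralogs that replace each other in a complex.

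Levels are given in CPM, counts scaled to library size, and 1 read was worth 0.182 to 0.196 CPM in totals of 5.04 to 5.49 M expected counts. The labelled states carried their markers. The 6 pluripotency markers summed to 4757, 897, 584 and 359 CPM at days 0, 2, 3 and 4, and the 9 markers of endothelium and early blood to 247, 446, 1141 and 1575 CPM. The 5 primitive streak markers summed to 0.97, 501, 199 and 45.4 CPM, and GATA1, a factor of blood cells, was at 0 counts on days 0, 2 and 3. All 9 markers of endothelium and early blood, GATA1 among them, were higher at day 4 than at day 0 by the 2-fold rule given below. Markers of other cells were present too. The 6 endoderm markers summed to 9.50, 2387, 152 and 178 CPM, of which CER1 made up 2287 CPM at day 2 and 1.64 CPM at day 4. By the 2-fold rule given below, 3 of the 6, APOA1, AFP and TTR, were higher at day 4 than at day 2, and CER1 was lower. The 5 markers of trophoblast and amnion summed to 3.68, 167, 175 and 126 CPM, nearly all from GATA3 and TFAP2A, and 3 of neuroectoderm to 190, 223, 86.4 and 35.3 CPM. The 6 fibroblast markers summed to 719, 813, 1549 and 2811 CPM, with DCN at 0 counts on days 0, 2 and 3. Of 5 fibroblast markers measured, 4 were higher at day 4 than at day 0 and THY1 was lower. The part of these cell types in the differences below was not tested. In such bulk RNA, fewer cells of a type and less RNA per cell cannot be told apart.

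Differences between days varied with transcript length, most of all where day 4 was compared with days 2 and 3. Among all genes of at least 5 CPM, the median difference between day 4 and day 3 on the log2(CPM + 1) scale went from 0.41 for the 583 genes under 1 kb to -0.57 for the 323 genes over 10 kb. Between days 3 and 2 the same medians were -0.10 and 0.03. Against day 0 the medians ran the other way, from -0.19 under 1 kb to 0.18 at 8 to 10 kb for day 2 and from -0.26 to 0.28 for day 3, while day 4 against day 0 went from 0.15 to -0.41 over 10 kb. Every comparison with day 0 thus carries a length trend too, and all 9 members called at day 2 below stayed past 2-fold after the medians of their length classes were subtracted. Of the 13 members over 6 kb, 11 were lower at day 4 than at day 3, with a median of -0.47, and of the 17 members under 3 kb, 14 were higher, with a median of 0.18. Day 4 values of long members are therefore given beside day 3 values, and the plot of differences by transcript length shows the trend with the members on it.

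**Figure D1:**
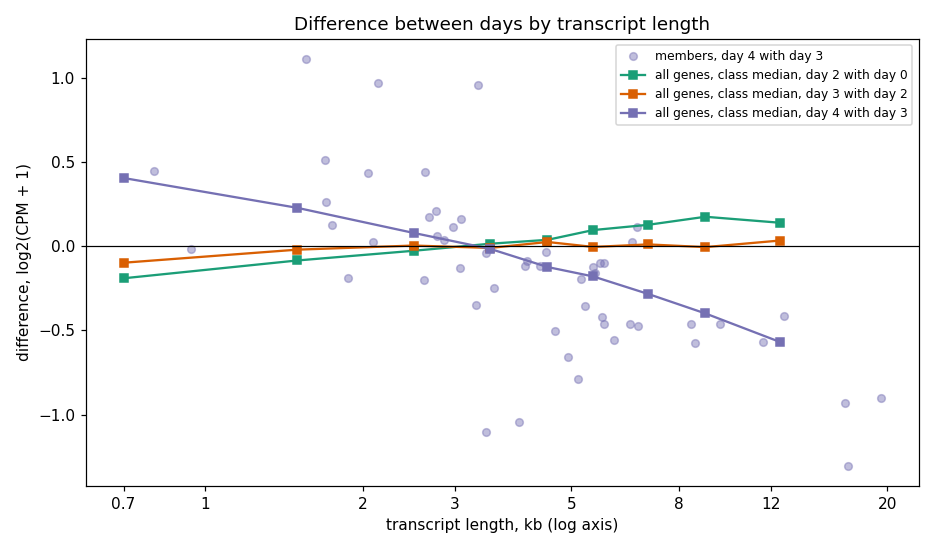
Difference between days in log2(CPM + 1) against transcript length in kb on a log axis. Squares joined by lines are medians of all genes of at least 5 CPM in 9 length classes, each drawn near the middle of its class, and circles are the members at day 4 against day 3; the line of day 4 against day 3 runs from 0.41 at the shortest class to -0.57 at the longest, that of day 2 against day 0 from -0.19 up to 0.18, and that of day 3 against day 2 stays between -0.10 and 0.03.

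A member was counted as higher or lower where it reached 1 CPM in either library and its log2(CPM + 1) values were 1 unit or more apart, a 2-fold difference on that scale. At day 2 against day 0, 5 of 52 measured members were higher (PHC2, KDM6B, SMARCD3, BMI1, CHD7) and 4 were lower (SALL2, PHC1, JARID2, CBX2). That is 9.62% and 7.69% of members, where 12.9% and 8.81% of all 15379 genes were called higher and lower. The median log2 ratio was -0.04 for the members and 0.00 for all genes. CBX8 lay under the minimum in this comparison. At 4-fold, 3 members were higher and 3 lower, 5.77% each, beside 4.63% and 1.93% of all genes. At 2-fold the shares of called members were below the background of all genes, and 3 members are too few to read the 4-fold shares against it. The description below concerns which members they were.

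At day 4 against day 2, 2 of 53 members were higher (PHC2, PHF19) and 4 lower (KDM6A, KMT2C, BMI1, KMT2A), or 3.77% and 7.55%, beside 8.17% and 7.59% of 15406 genes. The medians were -0.07 for the members and 0.02 for all genes. No member passed 4-fold in either direction, and 2.32% and 1.4% of genes did. From day 0 to day 4, 7 members were higher (KDM6B, PHC2, SMARCD3, CBX8, PHF19, SMARCA2, ASH2L) and 7 lower (SALL2, PHC1, JARID2, CBX6, CBX2, KDM6A, KDM2B), which is 13.2% each, beside 16.1% and 11.9% of 15652 genes. The medians were -0.13 and 0.03. Past 4-fold there were 3 higher and 3 lower, 5.66% each, beside 6.27% and 3.44% of genes. The 3 comparisons share libraries, so their counts are not independent of each other. With day 3 in place of day 4, 3 members were higher and 0 lower against day 2, beside 5.82% and 3.51% of genes, and 5 higher and 4 lower against day 0, beside 15.6% and 10.4%.

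**Figure D2:**
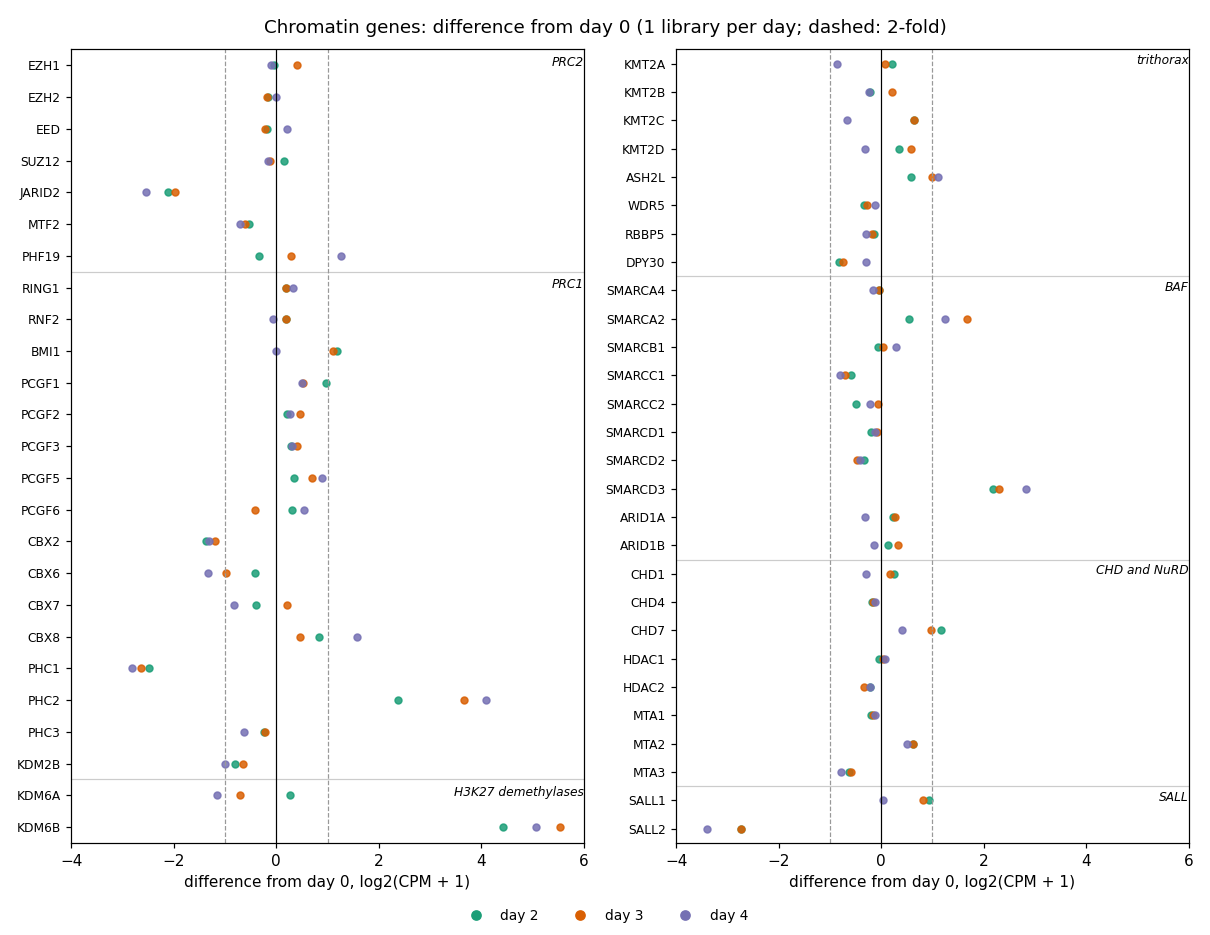
Difference from day 0 in log2(CPM + 1) for the 53 members, grouped by complex, with 1 point each for days 2, 3 and 4 and dashed lines at a 2-fold difference. PHC2, KDM6B and SMARCD3 lie more than 2 units to the right on each of the 3 days, and PHC1 and SALL2 more than 2 units to the left, with JARID2 near them; most other points lie between the dashed lines.

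Of the 6 members past 4-fold at day 2, the 4 whose annotated start could be placed are shown by the 250 bases before that start. PHC2, KDM6B and SMARCD3 were higher and JARID2 lower. The windows are from RefSeq on GRCh38.p14, 5′ to 3′, and each start lies within 20 bases of the GENCODE start of a transcript that the deposited files list. They are chr6:15248605-15248854 on the plus strand for JARID2, chr1:33349900-33350149 on the minus strand for PHC2, chr17:7839667-7839916 on the plus strand for KDM6B and chr7:151276735-151276984 on the minus strand for SMARCD3. Capitals mark matches, on either strand, to GGGCGG (the GC box) or CATTGT (a SOX core). A pair of GC boxes in the PHC2 window shares its middle base, and no other matches overlap. The CCAAT box, the TATA box (TATAAA), the octamer (ATGCAAAT) and the E-box (CACGTG) were searched in the same way and have no match in these windows.
JARID2: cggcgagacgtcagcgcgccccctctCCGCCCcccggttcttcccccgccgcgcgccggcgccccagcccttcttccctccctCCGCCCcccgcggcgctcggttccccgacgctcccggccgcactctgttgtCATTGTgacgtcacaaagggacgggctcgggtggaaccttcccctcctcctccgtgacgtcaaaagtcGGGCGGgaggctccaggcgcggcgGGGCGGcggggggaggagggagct
PHC2: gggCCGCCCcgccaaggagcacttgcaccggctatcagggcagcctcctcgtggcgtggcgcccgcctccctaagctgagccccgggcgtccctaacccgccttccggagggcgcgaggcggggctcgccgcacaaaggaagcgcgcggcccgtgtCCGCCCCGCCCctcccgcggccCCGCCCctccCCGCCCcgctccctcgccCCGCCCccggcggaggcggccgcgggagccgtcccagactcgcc
KDM6B: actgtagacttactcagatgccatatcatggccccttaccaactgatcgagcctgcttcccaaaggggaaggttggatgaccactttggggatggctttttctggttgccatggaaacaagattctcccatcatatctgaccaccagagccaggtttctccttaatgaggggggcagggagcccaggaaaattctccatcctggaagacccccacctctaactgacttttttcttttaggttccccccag
SMARCD3: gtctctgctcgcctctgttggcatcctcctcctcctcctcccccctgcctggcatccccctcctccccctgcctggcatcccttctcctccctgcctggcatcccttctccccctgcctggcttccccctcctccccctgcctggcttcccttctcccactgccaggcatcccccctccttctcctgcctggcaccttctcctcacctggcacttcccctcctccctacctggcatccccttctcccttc

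The window of JARID2 holds 34 CG dinucleotides and 4 GC boxes, and that of PHC2 holds 36 and 6. The windows of KDM6B and SMARCD3 hold 1 CG dinucleotide each and no GC box. The median was 25.5 CG dinucleotides in the 72 windows of the 45 members with an entry, and 11 in all 35116 windows. A GC box stood in 49 of the 72 windows and in 42.6% of all windows, and CATTGT in 6 of the 72 and in 9.29% of all. The 4 genes have 2 or 3 annotated windows each, and the files do not show which start was used. These matches describe letters, not binding.

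Among PRC2 genes, the 4 core genes were not called in any of the 3 comparisons, while the accessory subunits JARID2 and PHF19 were. At day 4 against day 0, 1 of the 7 PRC2 genes was higher and 1 lower, 14.3% each, beside 16.1% and 11.9% of all genes. EZH2 (gene ID 2146), the main methyltransferase, measured 91.7, 81.6, 81.2 and 91.8 CPM at days 0, 2, 3 and 4, with a 95% interval of the day 4 to day 0 ratio from 0.881 to 1.14. SUZ12, the scaffold, measured 104, 116, 94.9 and 92.5 CPM, and EED, which binds the methyl mark, 20.8, 18.2, 17.6 and 24.2 CPM. EZH1, the paralog of EZH2, measured 21.1, 20.4, 28.2 and 19.6 CPM, and its part of the summed FPKM of the pair (a level per transcript length) was 11.5% at day 0 and 10.8% at day 4. The highest and lowest days of these 4 genes differed by 1.13- to 1.44-fold.

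JARID2 (gene ID 3720), the subunit that helps recruit PRC2 in stem cells, measured 648, 150, 163 and 110 CPM. It was 4.33-fold lower at day 2 than at day 0 (4.00 to 4.69) and 5.87-fold lower at day 4 (5.38 to 6.41). MTF2, a Polycomb-like subunit that tethers PRC2 to unmethylated CpG-rich DNA, measured 149, 103, 96.4 and 90.7 CPM, 1.44-fold lower at day 2 (1.29 to 1.61), short of the 2-fold rule. PHF19, another Polycomb-like subunit, went the other way late, at 10.7, 8.24, 13.3 and 26.9 CPM. It was 3.26-fold higher at day 4 than at day 2 (2.30 to 4.72), and 1.62-fold higher at day 3. Day 0 of JARID2 stood far above its other 3 days, and day 4 of PHF19 above its other 3.

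Within PRC1, PHC1 and PHC2 moved in opposite directions. They are polyhomeotic subunits, which polymerise through a SAM domain and cluster PRC1 on chromatin. PHC1 (gene ID 1911) measured 1261, 224, 203 and 177 CPM. It was 5.62-fold lower at day 2 than at day 0 (5.27 to 5.99) and 7.11-fold lower at day 4 (6.65 to 7.62). PHC2 (gene ID 1912), the window with 6 GC boxes, measured 4.27, 26.5, 65.3 and 89.1 CPM, with no overlap between the counting intervals of any 2 days. It was 6.21-fold higher at day 2 than at day 0 (3.94 to 10.2) and 20.9-fold higher at day 4 (13.6 to 33.6). PHC3, at 64.2, 53.9, 55.3 and 41.3 CPM, differed by 1.56-fold at most.

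Per transcript length, PHC1 held 97.3, 74.8, 57.0 and 47.3% of the summed FPKM of the 3 PHC genes at days 0, 2, 3 and 4, and PHC2 held 0.641, 17.8, 36.6 and 48.2%. The ratio of PHC2 to PHC1 counts, which no library scaling affects, was 148-fold higher at day 4 than at day 0 (96.2 to 240). That value rests on the low day 0 count of PHC2, which depth limits. The sum was not conserved: the 3 genes together stood at 253 FPKM at day 0 and at 56.1 to 71.5 FPKM later. Among all genes ordered by FPKM, PHC1 was 220th at day 0 and 2220th at day 4, and PHC2 was 12222nd and 2174th. Without the length term, in expected counts, PHC1 was still ahead of PHC2 at day 4, with 57.6% of the summed counts.

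**Figure D3:**
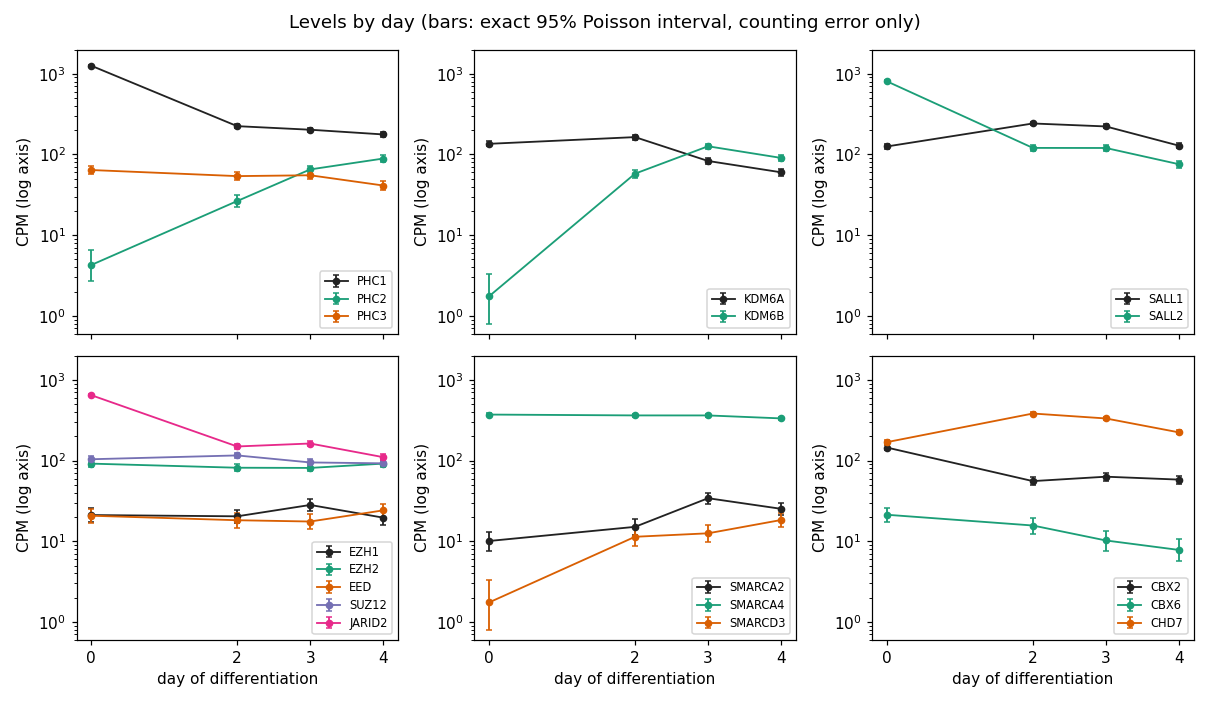
CPM on a log axis against day of differentiation for selected members in 6 panels, with exact 95% Poisson intervals as bars (counting error only, 1 library per day). PHC2 goes from 4.27 to 89.1 CPM while PHC1 goes from 1261 to 177, KDM6B crosses KDM6A between days 2 and 3, SALL2 crosses SALL1 between days 0 and 2, and EZH2 stays between 81.2 and 91.8.

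The CBX subunits carry the chromodomain with which PRC1 reads the PRC2 mark. CBX2 (gene ID 84733) measured 145, 55.7, 63.2 and 58.2 CPM, 2.61-fold lower at day 2 than at day 0 (2.27 to 3.00). CBX6 measured 21.3, 15.7, 10.2 and 7.82 CPM, 2.73-fold lower at day 4 than at day 0 (1.90 to 3.98). CBX7, at 3.68, 2.55, 4.44 and 1.64 CPM, rested on 9 to 23 counts a day, and the Poisson intervals of its single days overlapped. By the 2-fold rule 2 of the 16 PRC1 genes, CBX7 and BMI1, were lower at day 4 than at day 3. That is 12.5%, beside 4.23% of all genes. CBX8 had 0, 4, 2 and 11 counts. Set against a floor of 3 counts for day 0, its day 4 level was 3.44-fold higher, a value that leaves out the counting error of day 4. The 4 genes summed to 43.1 FPKM at day 0 and to 19.0, 19.9 and 18.7 FPKM afterwards, with CBX2 leading on every day at 69.6 to 82.4%.

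The PCGF subunits define the kinds of PRC1. PCGF2, of canonical PRC1, and PCGF3, of a variant form, were near level, at 66.1, 76.5, 91.6 and 79.6 CPM and at 86.5, 106, 114 and 107 CPM. PCGF1, which pairs with KDM2B in another variant, measured 2.52, 5.89, 4.06 and 4.00 CPM from 13 to 30 counts. KDM2B, which brings that variant to CpG islands, measured 168, 95.1, 107 and 83.2 CPM, 2.02-fold lower at day 4 than at day 0 (1.80 to 2.26), and 0.65 lower on the log2(CPM + 1) scale at day 3. PCGF6 measured 15.3, 19.2, 11.2 and 22.9 CPM, with the day 3 value lowest. The ubiquitin ligases RNF2, at 84.2, 95.9, 96.0 and 80.9 CPM, and RING1, at 18.2, 21.0, 21.1 and 23.1 CPM, varied by 1.19- and 1.27-fold over the 4 days.

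BMI1 (gene ID 648), the other PCGF subunit of canonical PRC1, measured 8.53, 20.8, 19.5 and 8.54 CPM, higher on days 2 and 3 than on days 0 and 4. A read-through gene model, COMMD3-BMI1, overlaps it in the annotation, so reads had to be divided between the 2, and its estimated counts were not whole numbers. That model measured 1.94, 12.8, 14.1 and 32.9 CPM, highest on the day when BMI1 itself was back at its day 0 level. Summed, the 2 models stood at 10.5, 33.5, 33.6 and 41.4 CPM, 3.20-fold higher at day 2 than at day 0 (2.35 to 4.43) and 3.96-fold higher at day 4 (2.93 to 5.43). The direction between days 2 and 4 thus differed: BMI1 alone was 2.43-fold lower (1.71 to 3.51) and the sum 1.24-fold higher (1.01 to 1.52). Levels of COMMD3, the other gene in the name of the model, were not examined, so the sum need not be a level of BMI1.

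**Figure D4:**
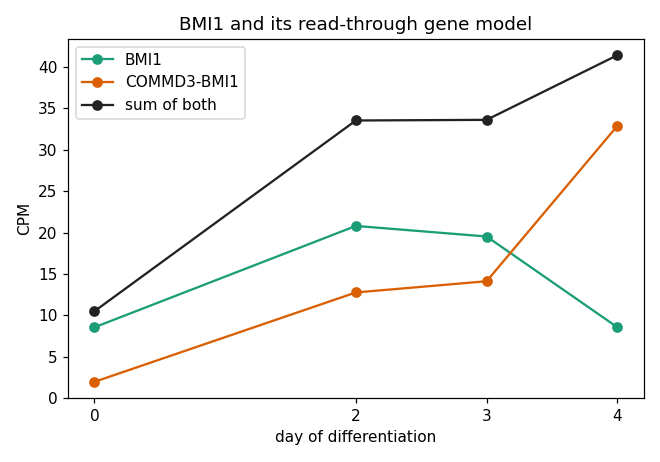
CPM against day for the BMI1 gene model, the read-through model COMMD3-BMI1 and their sum, 1 library per day. BMI1 alone returns from 20.8 CPM at day 2 to 8.54 at day 4, while the sum goes from 33.5 to 41.4.

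Of the demethylases that remove the PRC2 mark, KDM6B was higher and KDM6A lower at day 4 than at day 0. KDM6B (gene ID 23135), whose window above is poor in CG, measured 1.75 CPM at day 0, from 9 counts, then 57.9, 126 and 90.7 CPM. It was 33.2-fold higher at day 2 than at day 0 (17.2 to 73.2), 72.4-fold at day 3 (37.9 to 159) and 52.0-fold at day 4 (27.2 to 114). KDM6A (gene ID 7403) measured 136, 164, 83.1 and 60.2 CPM, 2.73-fold lower at day 4 than at day 2 (2.40 to 3.11). Most of that difference was present at day 3, at -0.97 on the log2(CPM + 1) scale, and it was -1.24 at day 4 after the median of genes of its length class was subtracted. KDM6B held 1.08% of the summed FPKM of the pair at day 0 and 23.3, 56.7 and 56.5% afterwards. The summed FPKM was 24.1 at day 0 and 23.8 at day 4, with 36.0 and 32.8 between, so unlike the PHC genes the pair ended near its starting sum. The ratio of KDM6B to KDM6A counts was 117-fold higher at day 4 than at day 0 (60.0 to 260).

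**Figure D5:**
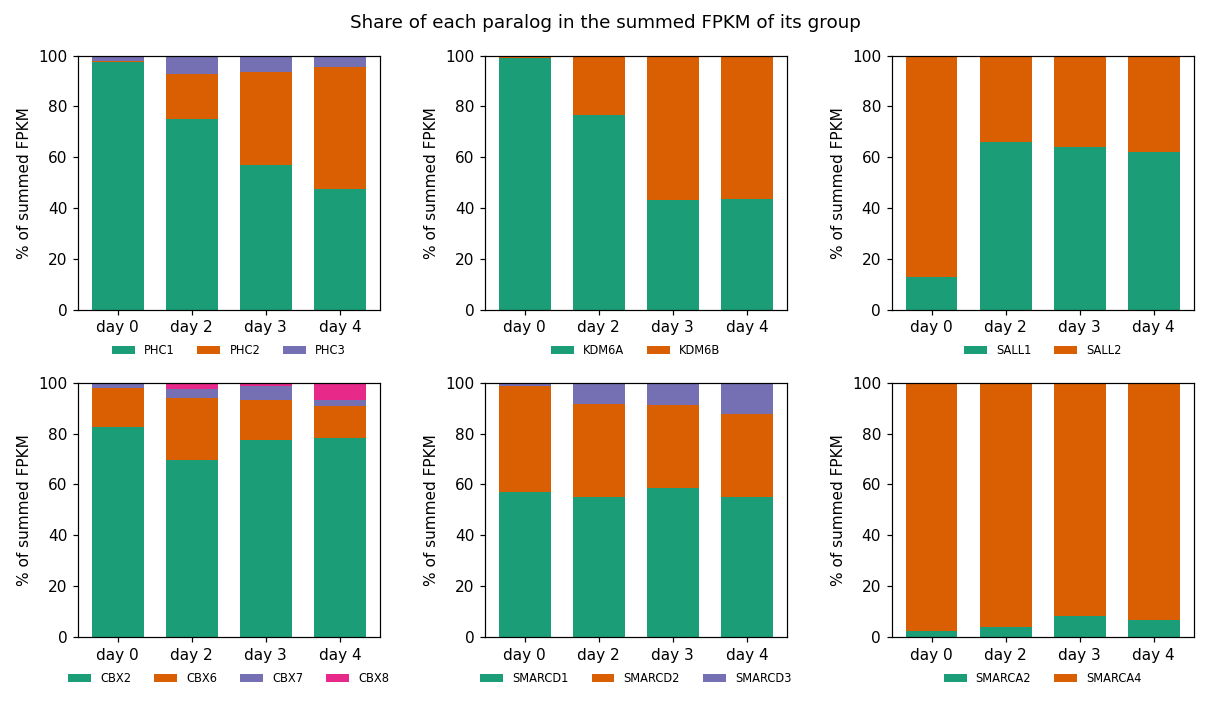
Stacked bars of the share of each paralog in the summed FPKM of its group, in percent, by day, for 6 groups. The PHC bar goes from 97.3% PHC1 to nearly equal PHC1 and PHC2, the KDM6 bar from 98.9% to 43.5% KDM6A, and the SALL bar from 87.0% to 38.1% SALL2, while SMARCA4 keeps at least 91.7% of its pair.

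Of 8 trithorax-type genes, none was called at day 2 against day 0, where 12.9% of all genes were higher and 8.81% lower. At day 4 against day 3, KMT2C alone passed the rule, lower, where 2.96% of all genes were higher and 4.23% lower. KMT2A (gene ID 4297), the MLL1 methyltransferase needed for HOX gene expression in blood stem cells, measured 186, 215, 196 and 102 CPM. KMT2C, which marks enhancers, measured 96.4, 151, 151 and 60.7 CPM and its paralog KMT2D 237, 304, 355 and 190 CPM. KMT2B, the paralog of KMT2A, measured 83.0, 71.4, 96.4 and 69.8 CPM. Their transcripts are 8.47 to 19.4 kb long, in length classes whose medians over all genes were -0.40 and -0.57 between days 3 and 4. Between days 2 and 4, KMT2A was 2.10-fold lower (1.90 to 2.33) and KMT2C 2.49-fold (2.19 to 2.84). Less the median of genes over 10 kb, those log2 differences were -0.55 and -0.78, neither past 2-fold. At day 3 against day 2, with no median subtracted, the differences were -0.13 and 0.00.

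The shared core of these enzymes gave other patterns. ASH2L, its DNA-binding subunit, measured 39.6, 59.4, 79.8 and 86.7 CPM, each day above the last, and was 2.19-fold higher at day 4 than at day 0 (1.86 to 2.59). DPY30, its short dimeric subunit, measured 37.0, 20.6, 21.8 and 30.2 CPM, 1.80-fold lower at day 2 than at day 0 (1.41 to 2.30), short of the rule. WDR5, which binds the histone tail, stayed within 74.0 to 93.3 CPM and RBBP5 within 41.8 to 51.8 CPM.

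In the BAF complex, 2 of 10 genes passed the rule, the minor paralogs SMARCA2 and SMARCD3, both higher at day 4 than at day 0. That is 20% of the 10, beside 16.1% of all genes. The ATPase SMARCA4 measured 372, 363, 363 and 334 CPM, a range of 1.12-fold. Its paralog SMARCA2 measured 10.1, 15.1, 34.2 and 25.3 CPM, 2.51-fold higher at day 4 than at day 0 (1.81 to 3.52) and 3.39-fold at day 3 (2.48 to 4.71). SMARCA2 still held only 2.53, 3.88, 8.27 and 6.76% of the summed FPKM of the pair. SMARCD3 (gene ID 6604), the BAF60C subunit known from heart and somite development, measured 1.75, 11.4, 12.6 and 18.4 CPM. It was 6.52-fold higher at day 2 than at day 0 (3.21 to 15.0) and 10.5-fold at day 4 (5.33 to 23.7), from 9 counts at day 0. Its share of the 3 SMARCD genes was 1.13% of FPKM at day 0 and 12.3% at day 4, while SMARCD1, at 181, 157, 171 and 166 CPM, kept 54.9 to 58.7%.

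The scaffold SMARCC1, abundant in stem cells, measured 627, 416, 385 and 359 CPM, 1.75-fold lower at day 4 than at day 0 (1.65 to 1.85), short of the rule. SMARCC2, its paralog, measured 133, 94.8, 127 and 114 CPM, and its share of the pair was 18.2% of FPKM at day 0 and 24.9% at day 4. SMARCB1, at 79.8 to 103 CPM, and SMARCD2, at 107, 84.0, 76.5 and 80.0 CPM, were not called in any comparison. The DNA-binding subunits ARID1A, at 281, 330, 336 and 226 CPM, and ARID1B, at 103, 113, 130 and 93.8 CPM, were lowest at day 4. Their transcripts are 8.59 and 9.61 kb long, and the median of all genes of 8 to 10 kb between those days was -0.40, against -0.57 for ARID1A and -0.46 for ARID1B.

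Of the CHD and NuRD genes, CHD7 was the only member called in the 3 comparisons. At day 2 against day 0 that is 12.5% of the 8, beside 12.9% of all genes higher. CHD7 (gene ID 55636), a remodeller of enhancers in neural crest and mesoderm, measured 169, 383, 333 and 224 CPM, 2.26-fold higher at day 2 than at day 0 (2.09 to 2.45). Its difference between days 4 and 3 on the log2 scale, -0.57, is to 2 decimals the median of all genes over 10 kb. CHD1, which keeps stem cell chromatin open, measured 157, 186, 177 and 128 CPM. The deacetylase HDAC1 measured 98.9, 96.5, 102 and 104 CPM and HDAC2 439, 380, 350 and 379 CPM. With the NuRD ATPase CHD4, at 575 to 648 CPM, they varied by 1.07- to 1.26-fold. HDAC1 was the steadiest member of at least 10 CPM, with a day 4 to day 0 ratio of 1.05 (0.928 to 1.18).

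The MTA subunits, scaffolds of NuRD, differed among themselves in small steps. MTA3 measured 139, 89.3, 92.0 and 80.7 CPM, 1.56-fold lower at day 2 than at day 0 (1.39 to 1.76). MTA2 measured 115, 176, 177 and 162 CPM, 1.54-fold higher at day 2 (1.39 to 1.71), and MTA1 measured 125, 109, 112 and 115 CPM. Neither MTA2 nor MTA3 passed the 2-fold rule. MTA3 held 48.0% of the summed FPKM of the 3 at day 0, and MTA2 led at day 4 with 38.7%.

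The 2 SALL members, SALL1 and SALL2, zinc finger factors that bind NuRD, crossed by day 2. SALL2 (gene ID 6297) measured 807, 121, 120 and 75.8 CPM, 6.69-fold lower at day 2 than at day 0 (6.15 to 7.29) and 10.6-fold lower at day 4 (9.63 to 11.8). SALL1 measured 126, 242, 223 and 129 CPM, 1.93-fold higher at day 2 than at day 0 (1.75 to 2.12), just short of the rule, and 1.02-fold at day 4 (0.919 to 1.14). SALL2 held 87.0, 34.2, 36.1 and 38.1% of the summed FPKM of the pair. At day 0 it was the 334th gene by FPKM, and at day 4 the 4842nd. SALL3 and SALL4, which are not members, summed to 199, 147, 153 and 94.7 CPM. Both were lower at day 4 than at day 0 by the 2-fold rule, beside 11.9% of all genes, and neither at day 3.

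Over the 15 paralog groups compared, the member with the largest share of FPKM at day 0 was not the leading member at day 4 in 5: PHC, KDM6, SALL, MTA and KMT2A with KMT2B. In expected counts, without the length term, this held for 3 groups, KDM6, SALL and MTA. In the KMT2A and KMT2B pair the shares were 53.3 and 46.7% at day 0, and 42.7 and 57.3% at day 4. KMT2A still led that pair at days 2 and 3, with 60.5 and 50.9%, and PHC1 still led its group at day 3, with 57.0%. Of the 50 members with at least 10 CPM on some day, 23 varied by under 1.5-fold over the 4 days, and 35.1% of 11565 such genes did. The highest level fell on day 0 for 20 of 53 members, on day 2 for 8, on day 3 for 13 and on day 4 for 12, beside 34.0, 19.8, 19.1 and 27.1% of 16085 genes.

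The deposited gene length is a weighted mean over the transcripts of a gene, and was the same in all 4 libraries for each of 8881 genes with 1 transcript. It could differ for 25 of the 53 members, and differed by at least 10% between days in 2 of them, beside 13.7% of 6734 such genes. PCGF5, of a variant PRC1, had a length of 2.91, 3.55, 2.42 and 2.14 kb at days 0, 2, 3 and 4, from 63 to 130 counts a day. Its level was 12.2, 15.7, 20.3 and 23.6 CPM, 1.93-fold higher at day 4 than at day 0 (1.42 to 2.66), and 4.31, 4.33, 8.36 and 11.1 on the FPKM scale. PHF19 had a length of 3.02, 3.31, 3.61 and 3.33 kb. The shorter length of PCGF5 at days 3 and 4 adds to its difference in FPKM and not to that in CPM.

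A further 87 chromatin genes outside the members, listed by complex, gave 10 higher and 3 lower of 85 measured at day 2 against day 0, 11.8% and 3.53% beside the 12.9% and 8.81% of all genes, with a median of 0.04. YAF2, a subunit of variant PRC1, measured 4.46 CPM at day 0 and 26.7 at day 2, 5.98-fold higher (3.83 to 9.75). CHD3, the paralog of CHD4 in NuRD, was 3.15-fold higher (2.66 to 3.76), at 34.5 and 109 CPM. BCORL1, of the variant PRC1 with PCGF1, was 3.24-fold higher (2.13 to 5.05), EPOP, a PRC2 cofactor, 4.17-fold (1.89 to 10.5) and BCL11B, a BAF-associated zinc finger factor, 3.15-fold (2.13 to 4.79). The 3 lower genes were AUTS2, a PRC1 partner, 2.54-fold (2.20 to 2.96), the BAF subunit DPF1, 2.62-fold (1.69 to 4.17), and the remodeller HELLS, 2.06-fold (1.83 to 2.33).

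From day 0 to day 4, 12 of these 85 were higher and 11 lower, 14.1% and 12.9% beside 16.1% and 11.9% of all genes, with a median of -0.19. ASXL3 and ASXL1, of the complex that removes the PRC1 ubiquitin mark, were 18.1-fold (5.90 to 90.4) and 4.14-fold higher (3.49 to 4.92), with ASXL1 at 32.4 and 134 CPM. ASXL3 stood at 0.582 CPM at day 0, the level of 3 counts, and at 10.5 CPM at day 4. BCORL1 was 6.31-fold (4.29 to 9.60), YAF2 5.54-fold (3.54 to 9.04) and CHD3 3.53-fold higher (2.99 to 4.19). BCL11A, a zinc finger factor of BAF, was 6.02-fold lower (4.09 to 9.13), DPF1 5.14-fold (2.97 to 9.43) and HELLS 2.80-fold (2.46 to 3.19). BPTF, the NURF remodeller, was 2.69-fold lower (2.49 to 2.91) and BCOR, the paralog of BCORL1, 2.64-fold (2.29 to 3.05). Against day 2, 1 was higher at day 4, ASXL3, and 6 lower, 1.18% and 7.06% beside 8.17% and 7.59% of all genes. The lower genes included BCL11B 6.36-fold (3.83 to 11.1), BCL11A 4.00-fold (2.67 to 6.16), ASXL2 2.76-fold (2.36 to 3.25), BICRAL 2.32-fold (1.79 to 3.04) and BCOR 2.15-fold (1.86 to 2.50). With day 3 in place of day 4, 1 was higher and 3 lower against day 2, beside 5.82% and 3.51% of all genes, and 10 higher and 4 lower against day 0, beside 15.6% and 10.4%. The 3 lower against day 2 were all of the BAF list. In the list with ASXL2 the lowest difference between days 3 and 2 was -0.17. No gene of the PRC1 list, which holds BCOR, was lower at day 3 against either day. Of the list with BPTF and HELLS, 2 were lower at day 4 against day 0 and 1 at day 3. Less the length class median, 3 were higher and 3 lower at day 4 against day 2, beside 7.59% and 7.70% of all genes.

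Cell cycle genes were read beside the members. The 12 S phase markers summed to 2424, 1536, 1430 and 1768 CPM and the 9 mitosis markers to 1639, 2021, 1697 and 1611 CPM. EZH2, whose transcription is tied to the cell cycle in many cells, varied by 1.13-fold over the same days. None of the 12 S phase markers was at 0 counts in any library, and their part in the levels of the members was not tested.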

How the data were processed

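RNA of 4 libraries, 1 per day, was analysed. Each deposited file gives an expected count, a length in base pairs and FPKM per Entrez gene ID, per the file headers. The submitters' processing notes name BWA, Bowtie, RSEM and hg19, with neither versions nor roles, and the series' design text names other tools as well. The deposited expected counts were rounded and scaled with TMM factors of 0.981 to 1.02 (edgeR 4.0.16, R 4.3.3). The authors' deposited FPKM was used for shares between paralogs and for 1 alternative. Symbols came from RefSeq for GRCh38.p14: 19273 of 19390 IDs matched. A gene missing from a file was taken as 0.

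With 1 library per day a rule of size stood in for tests (2-fold on log2(CPM + 1), at least 1 CPM in either library). Intervals are exact 95% Poisson for CPM, conditional binomial for folds and exact conditional for count ratios of paralogs, and they cover counting error only. The floor for a gene at 0 was 3 counts in that library. Other tools were scipy 1.17.1, pandas 2.3.3, numpy 2.4.6 and Python 3.11.15.

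The members, lists and rules were chosen with earlier results of these data known. Named genes were members called in a comparison with at least 5 CPM, members of the 15 paralog groups, and up to 5 further chromatin genes in each direction. The remaining members (EED, SUZ12, MTF2, WDR5, RBBP5, DPY30, SMARCB1, CHD1, CHD4) were named to account for every complex, after their values were seen. SALL3 and SALL4 were also named after their values were seen. Alternatives changed 1 choice at a time, and those on day 3, transcript length and BMI1, and all those on the further chromatin genes, were added after the data were seen.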

Additional observations from a re-analysis of the deposited data

How the results depend on the processing

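Of 29 single values called for members, 16 stayed past 2-fold under every alternative run, among them those of PHC1, PHC2, JARID2, SALL2, KDM6B, SMARCD3, CBX2 and CHD7. The other 13 values, of BMI1, KDM6A, KMT2A, KMT2C, PHF19, SMARCA2, ASH2L, KDM2B, CBX6 and CBX8, missed 2-fold under 1 or more. KMT2C at day 4 against day 2 reversed to 0.0024 with day 3 in place of day 4, and BMI1 reversed to 0.30 when summed with COMMD3-BMI1. The cause of the BMI1 reversal was not tested. No other called value reversed.

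Members at day 2 against day 0 numbered 3 higher (for 5) by the 4-fold rule. At day 4 against day 2 the lower count (4) was 2 on the deposited FPKM, 0 by the 4-fold rule, 0 with day 3 in place of day 4 and 2 less the length class median, and the higher count (2) was 0 by the 4-fold rule. Of all genes, 5.81% were lower on FPKM and 7.70% less the length class median, for 7.59%. The shares of all genes by the 4-fold rule and with day 3 are given above. At day 4 against day 0 the counts (7 and 7) were 3 and 3 by the 4-fold rule, and 4 lower with day 3. With day 3 the member medians were 0.031 against day 2 and 0.038 against day 0, for -0.07 and -0.13. Pseudocounts of 0.1 and 5, median-of-ratios factors, a common total and either change of the minimum left every count of members within 1.5 times and every median within 0.1.

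Further chromatin genes at day 2 against day 0 numbered 6 higher on FPKM, and 1 higher and 0 lower by the 4-fold rule, for 10 and 3. Of all genes, 10.8% were higher on FPKM, and 4.63% higher and 1.93% lower by the 4-fold rule. At day 4 against day 2, for 1 higher and 6 lower, they numbered 2 higher with a pseudocount of 0.1, 0 with 5, 2 with a common total, 0 higher and 3 lower on FPKM, 0 and 1 by the 4-fold rule, 3 and 3 less the length class median, and 3 lower with day 3. Of all genes, 10.4% were higher with a pseudocount of 0.1, 3.94% with 5 and 8.47% with a common total. On FPKM 6.95% of genes were higher and 5.81% lower, and less the length class median 7.59% and 7.70%. By the 4-fold rule the shares were 2.32% and 1.40%, and 3.51% of genes were lower with day 3. At day 4 against day 0, for 12 and 11, the further chromatin genes numbered 4 and 2 by the 4-fold rule and 4 lower with day 3. Of all genes, 6.27% were higher and 3.44% lower by the 4-fold rule, and 10.4% were lower with day 3. Paralog groups with another leader at day 4 numbered 3 (for 5) in expected counts. Members with a differing length numbered 1 (for 2) at 20%, and 1 among genes of at least 50 counts on every day. The 4-fold rule is stricter by construction; for the other alternatives the cause was not tested.

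No paired analysis was possible because each day is 1 library without a replicate number. Depth limits CBX7, CBX8, PCGF1 and the day 0 levels of PHC2, KDM6B and SMARCD3, which rest on 0 to 30 counts. Among the further chromatin genes it also limits ASXL3 at day 0, at 3 counts, and at day 2, at 3.53 CPM. The day 0 levels of EPOP, YAF2 and BCORL1, at 1.55, 4.46 and 5.82 CPM, are limited too. So are those of DPF1 at days 2 and 4, at 5.69 and 2.91 CPM, and of BCL11B at day 4, at 3.27 CPM.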
